A study of Mus musculus with 4 samples.

Results

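The 9 genes described here encode the machinery of store-operated calcium entry and its close regulators: Stim1, Stim2, Orai1, Orai2, Orai3, Saraf, Cracr2a, Cracr2b and Homer1. They were chosen by name, as every probe that the platform annotation pairs with these symbols or their older synonyms. This gave 9 probes, 1 per gene, out of 16631 named probes, and all 9 had a value on all 4 arrays, as did 14225 of the named probes. The older symbols were Tmem142a for Orai1, A730041O15Rik for Orai2, BC061259 for Orai3, Tmem66 for Saraf, Efcab4b for Cracr2a and Efcab4a for Cracr2b. Dim probes were kept. A probe is called dim where its mean log2 intensity over the 4 arrays lay below 4.86, the median of such means over the 14225 probes. Stim1, Stim2 and Orai2 were dim by this measure, and the deposited values carry no flag that says whether a dim value is above background.

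Left ventricular RNA of male C57BL/6 mice aged 14 weeks was measured on 4 arrays. Wild-type mice (WT) and mice with the genotype label STIM1 KO (STIM1KO) had either transverse aortic constriction (TAC), which narrows the aortic arch and loads the ventricle with pressure, or a sham operation, and each of these 4 groups had 1 array. All mice were operated on at 10 weeks of age under ketamine and xylazine and kept for 4 weeks, and the TAC suture was tied over a wire of 0.3 mm. The labels do not say how Stim1 was altered, in which cells, on 1 or both alleles, or whether an array holds the RNA of 1 mouse or of a pool. The mean ratio of heart to body weight in the labels, without unit, was 4.1 and 6.7 in WT after sham and TAC, and 4.5 and 4.9 in STIM1KO after sham and TAC. The whole tissue was used, so fewer cells of a type and less RNA per cell cannot be told apart.

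Store-operated calcium entry refills the endoplasmic reticulum after calcium has been released from it. STIM proteins sit in the membrane of the reticulum, sense its calcium content, and move on depletion to contacts with the plasma membrane, where they open channels formed by Orai subunits. Saraf slows and turns off this entry, Cracr2a and Cracr2b are EF-hand proteins that bind the channel complex, and Homer1 is a scaffold that links calcium channels and release channels. In heart muscle, calcium that cycles with each beat comes mainly through voltage-gated channels and ryanodine receptors, and store-operated entry has been studied as a source of calcium for hypertrophic signalling through calcineurin and NFAT.

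There are no replicates. Every difference below is between single arrays on the quantile-normalized log2 scale, with no test and no standard deviation between animals. The arrays limit the precision, and 2 measures of spread are given, neither of which replaces replicate error. The first is the share of all 14225 named probes that reached 2-fold in the same comparison. The second is the error SD of a single probe's difference. It was estimated from the disagreement of the 2 probes of genes with exactly 2 probes, which also holds real differences between transcripts. A change that both probes share cancels in it, so it leaves out variation between animals. A difference beyond it may still be such variation. Over 53 genes with both probes dim the error SD was 0.41 for WT TAC against WT sham and 0.55 for STIM1KO TAC against STIM1KO sham. It was 0.44 for STIM1KO sham against WT sham and 0.45 for STIM1KO TAC against WT TAC. Over 48 genes with both probes bright, that is at or above the median level, it was 0.27, 0.42, 0.28 and 0.35 in the same order. The SD of the differences over all bright probes was of like size, at 0.26, 0.42, 0.29 and 0.42 in that order. A difference beyond 1 error SD is thus common among all probes. Of 9 cardiomyocyte marker probes with values, 8 were bright, and the Ryr2 probe was dim at 2.77 to 5.65 intensity units although the ryanodine receptor is a major protein of heart muscle.

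The start sites of the 2 sensor genes and of the pore gene Orai1 are shown to place them in the genome. A link of these sequences to the levels on the arrays was not tested. Each line gives the 250 bases before the start site from RefSeq, build GRCm38.p6, plus strand, 5′ to 3′. Capitals mark GGGCGG or its reverse complement CCGCCC, the GC box.
Stim1, chr7:102267569-102267818: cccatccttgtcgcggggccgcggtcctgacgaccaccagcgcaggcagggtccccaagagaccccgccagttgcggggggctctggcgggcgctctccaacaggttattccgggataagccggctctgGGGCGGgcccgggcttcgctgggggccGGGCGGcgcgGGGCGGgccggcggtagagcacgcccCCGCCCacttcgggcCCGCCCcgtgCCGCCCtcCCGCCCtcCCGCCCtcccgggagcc
Stim2, chr5:53998273-53998522: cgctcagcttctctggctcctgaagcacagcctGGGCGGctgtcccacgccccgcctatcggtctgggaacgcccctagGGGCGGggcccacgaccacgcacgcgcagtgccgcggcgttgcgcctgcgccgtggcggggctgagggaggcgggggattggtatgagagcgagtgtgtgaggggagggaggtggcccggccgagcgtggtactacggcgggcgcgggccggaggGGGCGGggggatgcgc
Orai1, chr5:123014824-123015073: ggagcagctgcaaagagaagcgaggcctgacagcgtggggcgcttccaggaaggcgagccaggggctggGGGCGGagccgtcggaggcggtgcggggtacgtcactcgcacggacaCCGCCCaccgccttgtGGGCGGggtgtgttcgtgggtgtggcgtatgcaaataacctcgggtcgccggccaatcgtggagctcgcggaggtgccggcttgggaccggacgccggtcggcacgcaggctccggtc

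All 3 windows are rich in G and C, at 78.4% for Stim1, 74.8% for Stim2 and 70.8% for Orai1, against a median of 52.4% over 32851 such windows. The Stim1 window holds 8 GC boxes and the other windows 3 each, counting both strands, and 32.7% of all windows hold at least 1. None of the 3 holds TATAAA, which 12.4% of all windows hold, or GGAAA, the core bound by NFAT factors, which 55.6% hold. The EGR1 motif GCGTGGGCG was also not found, and it occurs in 0.536% of all windows. These matches describe letters and not binding. The Stim1 window lies inside the RefSeq span of the gene, which begins at a start site farther upstream. RefSeq windows were matched for 7 of the 9 genes.

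Stim1, the main sensor and the gene altered in STIM1KO, spans chr7:102261514-102437319 in GRCm38.p6. Its deposited intensity was 41.8 (sham) and 34.5 (TAC) in WT and 19.8 (sham) and 14.3 (TAC) in STIM1KO. Both STIM1KO arrays lay below both WT arrays. On the log2 scale STIM1KO was lower than WT, with a difference of -1.004 after sham and -1.30 after TAC. These lie at the 1.63rd and 0.833rd percentile of all named probes. Stim1 was the only 1 of the 9 members at 2-fold in either genotype comparison, where 2.69% of all named probes reached 2-fold between the sham arrays and 5.38% between the TAC arrays. Only 24 of 14225 named probes, 0.169%, were 2-fold lower in STIM1KO after both operations, and Stim1 was among them.

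Of these 24 probes, 20 were dim, and 9, Stim1 counted, had both differences at or below those of Stim1. The genotype gap of Stim1 was more than 2 times the dim-probe error SD of 0.44 in the sham arrays and of 0.45 in the TAC arrays. Under 5 scalings of the arrays it ranged from -1.08 to -0.84 between the sham arrays and from -1.30 to -1.03 between the TAC arrays. The sham value was thus under 2-fold with an offset added before log2. In the order of the 4 arrays, the step from WT TAC to STIM1KO sham, 0.71, and the step from STIM1KO sham to STIM1KO TAC, 0.59, were larger than their error SDs of 0.36 and 0.55. The step from WT sham to WT TAC, 0.30, was within its error SD of 0.41. The labels and the annotation do not place the probe within the transcript. It shows a lower signal and not how much functional Stim1 was left.

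By the rule of smallest root mean square distance between centred profiles over the 4 arrays, the 5 named genes most like Stim1 were Ccar1, Prcp, Abt1, Primpol and 4931428L18Rik, at distances of 0.035, 0.059, 0.061, 0.068 and 0.069 log2 units. Ccar1, the closest, had intensities of 94.3, 82.7, 46.2 and 33.9 in WT after sham, WT after TAC, STIM1KO after sham and STIM1KO after TAC. Abt1 had 182, 148, 93.7 and 57.5 in the same order. With 4 points such likeness is easily met among 14225 probes, and no other member was among the 5.

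Stim2, the second sensor, which responds to small falls of store calcium, lies at chr5:53998523-54121057. Its intensities were 27.9 and 26.3 in WT after sham and TAC, and 24.2 and 19.7 in STIM1KO after sham and TAC. The order of the arrays was that of Stim1, but the STIM1KO differences were small, -0.14 after sham and -0.43 after TAC. Each step between neighbours, the largest being 0.41 from STIM1KO sham to STIM1KO TAC, was within the dim-probe error. No higher level of Stim2 was seen on the arrays where Stim1 was low.

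**Figure D1:**
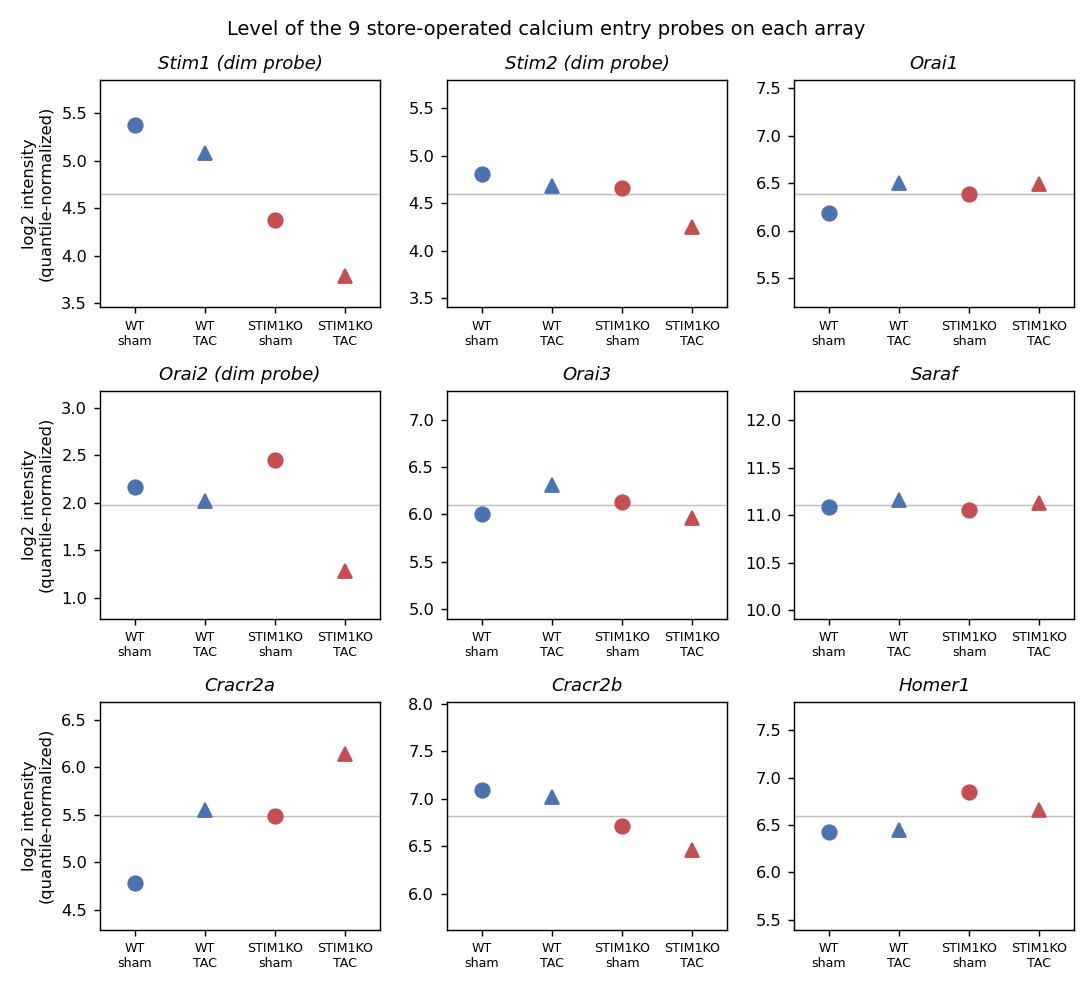
Quantile-normalized log2 intensity of the 9 probes on each of the 4 arrays, 1 point per array, with WT in blue, STIM1KO in red, sham as circles and TAC as triangles; the grey line is the mean of the 4 arrays and each panel spans the same log2 range. Stim1 steps down to the STIM1KO arrays, Cracr2a is lowest in WT sham and highest in STIM1KO TAC, and Saraf is nearly level.

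Of the pore subunits, Orai1 and Orai3 differed between genotypes by less than the probe error. Orai2 was lower in STIM1KO between the TAC arrays by more than that error, but by less with an offset before log2. Orai1, which forms the classical channel and lies at chr5:123015074-123030452, had intensities of 73.0 (sham) and 93.5 (TAC) in WT and 81.4 (sham) and 90.2 (TAC) in STIM1KO. It was higher after TAC in both genotypes, by 0.32 in WT and 0.11 in STIM1KO. The WT difference exceeded the bright-probe error SD of 0.27 but lay only at the 85.8th percentile of all named probes. The STIM1KO difference was within 0.42. The genotype difference was 0.20 after sham and -0.01 after TAC, and the latter was 0.0040 with quantile normalization over all values. Orai3, a subunit found in mammals, lies at chr7:127769815-127775150. It had 64.2 and 81.7 in WT after sham and TAC, and 68.5 and 62.7 in STIM1KO after sham and TAC. Its WT TAC array was the highest, with a difference of 0.30 from WT sham against an error SD of 0.27, at the 85.2nd percentile. STIM1KO TAC differed by -0.17 from STIM1KO sham and by -0.34 from WT TAC, both within the error.

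Orai2, a subunit that can dampen the channel when it joins Orai1, lies at chr5:136147456-136170697. Its probe was the dimmest of the 9, with 4.46 (sham) and 4.06 (TAC) in WT and 5.23 (sham) and 2.38 (TAC) in STIM1KO. All 4 values lay under the first quartile of their array, which was 5.38 to 5.64. The STIM1KO TAC array was the lowest, and the other 3 lay within the dim-probe error of their neighbours. STIM1KO differed from WT by 0.29 after sham, within the error SD of 0.44, and by -0.73 after TAC, beyond the error SD of 0.45 and at the 6.98th percentile of all named probes. STIM1KO TAC differed from STIM1KO sham by -1.17. Orai2 was the only member at 2-fold in that comparison, where 5.83% of all named probes and 9.79% of the dim ones reached it. With the offset before log2 the differences were -0.27 between the TAC arrays and -0.47 from STIM1KO sham. The size of either Orai2 difference is therefore not fixed by these data.

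Saraf, the membrane protein of the reticulum that inactivates store-operated entry, lies at chr8:34154579-34170847 and was the steadiest member. Its intensities were 2141 and 2424 in WT after sham and TAC, and 2043 and 2268 in STIM1KO after sham and TAC. The whole range of the normalized values was 0.11 on the log2 scale. The differences were 0.08 and 0.07 for TAC against sham in WT and STIM1KO, and -0.03 for STIM1KO against WT after each operation. All were well within the bright-probe error.

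Cracr2a, an EF-hand protein with a GTPase form that binds Orai1 and STIM1, lies at chr6:127561062-127674234. Its intensities were 27.5 (sham) and 47.5 (TAC) in WT and 43.2 (sham) and 70.3 (TAC) in STIM1KO. It was higher with TAC in both genotypes and higher in STIM1KO after both operations. TAC against sham differed by 0.76 in WT, a 1.70-fold value at the 97.6th percentile of all named probes, and by 0.66 in STIM1KO, at the 90.4th. STIM1KO against WT differed by 0.70 after sham, at the 96.7th percentile, and by 0.59 after TAC, at the 88.8th. These 4 differences share arrays 2 by 2 and are not 4 separate observations. The steps from WT sham to STIM1KO sham and from WT TAC to STIM1KO TAC were larger than the bright-probe error SDs of 0.28 and 0.35, while WT TAC and STIM1KO sham lay 0.07 apart. The difference of the responses, STIM1KO minus WT, was -0.11. Over the 5 scalings the 4 differences stayed between 0.54 and 0.79, so none reached 2-fold.

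Cracr2b, its paralog, lies at chr7:141460875-141466613 and ran the other way. Its intensities were 135 and 134 in WT after sham and TAC, and 102 and 88.3 in STIM1KO after sham and TAC. As for Stim1, the STIM1KO arrays were both below the WT arrays. The difference was -0.38 after sham and -0.56 after TAC, beyond the bright-probe error SDs of 0.28 and 0.35. Among all named probes these lay only at the 14.5th and 12.3rd percentile. TAC against sham differed by -0.07 in WT and -0.25 in STIM1KO.

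Homer1, the scaffold, lies at chr13:93303757-93405129. Its intensities were 85.4 (sham) and 90.4 (TAC) in WT and 113 (sham) and 101 (TAC) in STIM1KO. Both STIM1KO arrays were above both WT arrays. The difference was 0.43 after sham, beyond the error SD of 0.28 and at the 90.2nd percentile of all named probes. It was 0.21 after TAC, within the error SD of 0.35. The annotation does not place the 1 probe within the transcript, so which forms of Homer1 it reads is not known. The short form, Homer1a, lacks the part that joins Homer molecules to each other in the long forms.

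**Figure D2:**
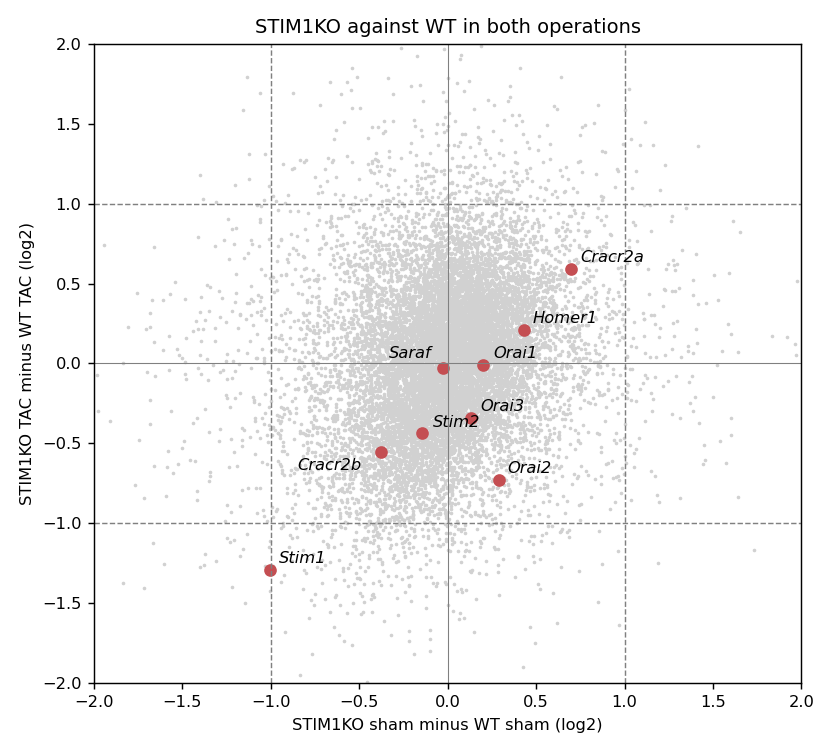
Log2 difference of STIM1KO from WT after sham (x axis) and after TAC (y axis) for the 9 members in red and all 14225 named probes in grey; dashed lines mark 2-fold, and 33 probes lie beyond the axes. Stim1 sits at -1.004 and -1.30, and Cracr2a lies highest on both axes among the members.

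Across both genotype comparisons, which share no array, 4 members were lower in STIM1KO after both operations (Stim1, Stim2, Saraf and Cracr2b) and 2 were higher after both (Cracr2a and Homer1). Both differences of Stim2 and of Saraf, and that of Homer1 after TAC, were within the probe error. Of all named probes, 29.0% were lower in both and 30.5% higher in both. The median over the 9 members was 0.13 after sham and -0.34 after TAC, against -0.0046 and 0.027 over all named probes. Without Stim1 the medians of the other 8 were 0.17 and -0.19.

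In the response to TAC, no member reached 2-fold in WT, where 2.09% of all named probes did. Orai1, Saraf and Cracr2a were higher after TAC in both genotypes, and Stim1, Stim2, Orai2 and Cracr2b were lower in both, with 28.2% and 29.7% of all named probes in these classes. For Saraf, Stim2 and Cracr2b both differences were within the probe error. Orai3 and Homer1 were higher in WT and lower in STIM1KO. The member median was 0.03 in WT and -0.19 in STIM1KO, against -0.02 and 0.01 over all named probes.

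**Figure D3:**
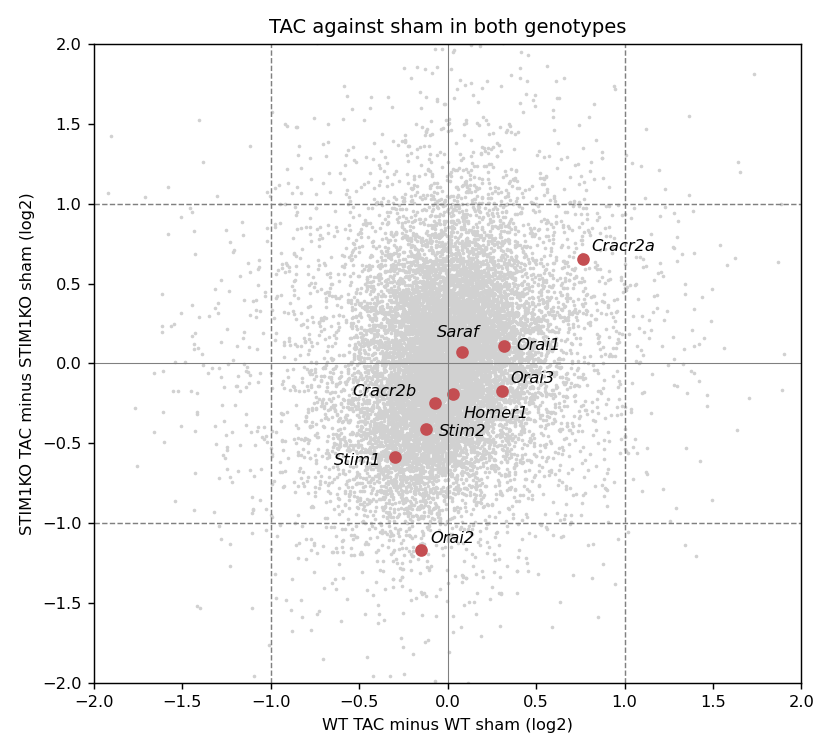
Log2 difference of TAC from sham in WT (x axis) and in STIM1KO (y axis) for the 9 members in red and all 14225 named probes in grey; dashed lines mark 2-fold, and 38 probes lie beyond the axes. Cracr2a is high on both axes at 0.76 and 0.66, and Orai2 lies past 2-fold on the STIM1KO axis at -1.17.

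The STIM1KO response less the WT response was below 0 for all 9 members, from -1.02 for Orai2 to -0.0060 for Saraf, with a median of -0.22. Of all named probes, 49.7% were below 0. With quantile normalization over all values Saraf was at 0.032, and 8 of the 9 were below 0. The value combines all 4 arrays, so 1 array that reads low or high for these genes moves every member. At 2-fold, Orai2 was the only member, beside 8.57% of all named probes and 15.0% of the dim ones, and it was under 2-fold at -0.999 with the values as deposited and at -0.40 with the offset. Orai3 followed at -0.48, at the 16.2nd percentile of all named probes and beyond the error SD of 0.40 for bright probes. Stim1 and Stim2, both at -0.29, were within that of 0.60 for dim probes, and the other 5 were within that of their class.

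Other genes of the pathway were taken from lists written out by name and counted by the same rule. Of 25 partners and regulators of STIM and Orai, 16 had a value on all 4 arrays. Between the TAC arrays 11 of the 16 were lower in STIM1KO, with a median of -0.30, beside 47.8% of all named probes, and none reached 2-fold. Between the sham arrays 10 were lower, with a median of -0.12, beside 50.7% of all named probes. Surf4, a cargo receptor of the reticulum that binds STIM1, differed by -0.70 between the TAC arrays and -0.25 between the sham arrays. Cav1, the main coat protein of caveolae, differed by -0.66 and -0.36, and Homer2, a relative of Homer1, by -0.55 and -0.06. Sppl3, an intramembrane protease, was higher by 0.68 between the TAC arrays and differed by -0.23 between the sham arrays. These 4 were chosen after their values were seen. Atp2c2, a secretory pathway calcium pump, was the only one of the list at 2-fold in any comparison. Its dim probe read 2.80 and 7.42 in WT after sham and TAC, and 3.30 and 4.40 in STIM1KO after sham and TAC, a WT response of 1.39 that was 0.63 with the offset.

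TRPC channels carry calcium and sodium and have been discussed as partners of STIM1. Of 7, 4 had a value on all arrays, and all 4 were lower in STIM1KO between the TAC arrays, with a median of -0.41 and none at 2-fold, beside 47.8% of all named probes. Between the sham arrays 2 were lower and 2 higher. Of these probes, 3 were dim. Trpc7 read 3.83 (sham) and 4.89 (TAC) in WT and 5.19 (sham) and 3.40 (TAC) in STIM1KO, and was at 2-fold only in the difference of responses, at -1.04.

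Of 16 genes of store release and refilling, 14 had a value on all arrays. Of these 14, 11 were lower after TAC in STIM1KO, with a median of -0.30, beside 49.0% of all named probes. In WT 6 were lower after TAC and 8 higher, with a median of 0.08, beside 52.4% of all named probes lower. Between the sham arrays 3 were lower in STIM1KO and 11 higher, with a median of 0.05, beside 50.7% of all named probes lower. Several of the 11 were near 0, such as Casq1, Ryr2 and Atp2a2, each at 0.02. Between the TAC arrays 9 were lower, with a median of -0.22, beside 47.8% of all named probes. The bright members Atp2a2, the calcium pump of the reticulum, and Pln, its inhibitor phospholamban, stayed under 2-fold throughout and are named for their role. Those at 2-fold in any comparison, Atp2a3, Casq1, Ryr2 and Sln, were all dim. Atp2a3, a pump isoform of non-muscle cells, read 12.7 and 17.3 in WT after sham and TAC, and 10.5 and 5.31 in STIM1KO after sham and TAC. Its difference between the TAC arrays, -1.74, was still past 2-fold at -1.09 with the offset. Casq1, the calsequestrin of skeletal muscle, read 10.7, 13.2, 10.4 and 5.32 in the same order, a difference of -1.34 between the TAC arrays that was -0.80 with the offset. Sln, which encodes sarcolipin, read between 1.72 and 3.98, too dim for the size of its differences to be read.

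Of 12 calcineurin and NFAT genes, which act downstream of sustained calcium entry, 10 had a value on all arrays. Between the TAC arrays 6 were lower in STIM1KO, with a median of -0.09, beside 47.8% of all named probes. In STIM1KO 7 were lower after TAC, with a median of -0.35, beside 49.0% of all named probes. Nfatc1, a calcium-regulated transcription factor, was the only one at 2-fold. It read 17.0 (sham) and 20.9 (TAC) in WT and 11.3 (sham) and 6.30 (TAC) in STIM1KO. STIM1KO TAC was the lowest, with a difference of -1.77 from WT TAC, or -1.18 with the offset.

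**Figure D4:**
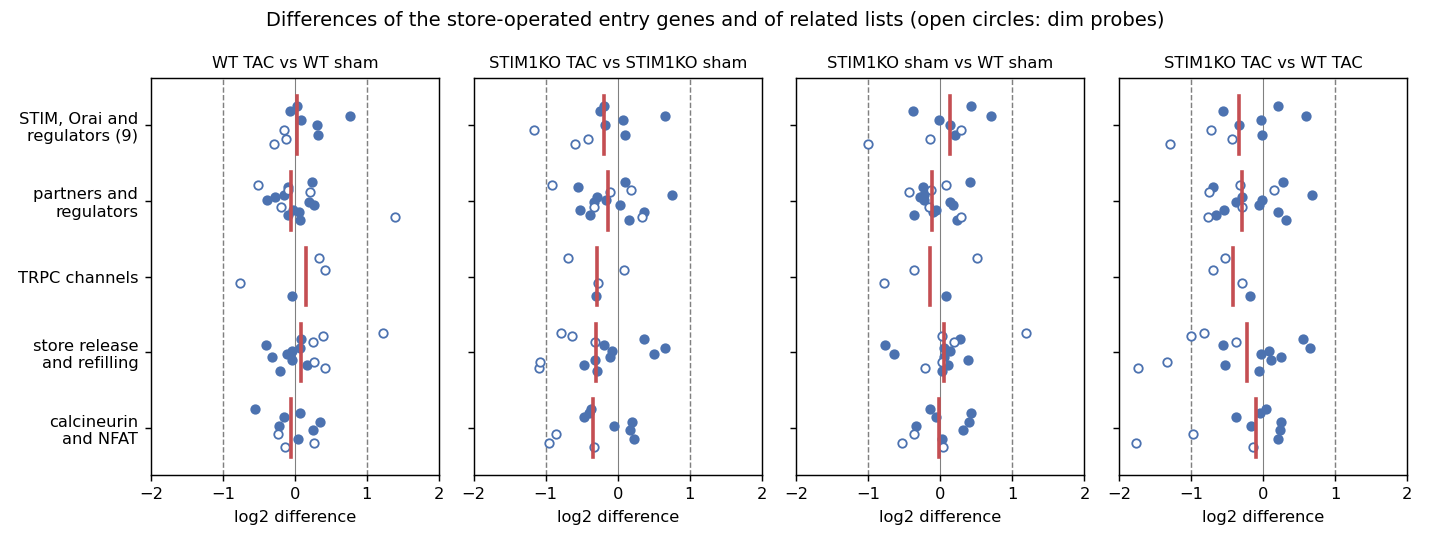
Log2 difference of each probe in 4 comparisons (panels) for the 9 members and 4 related lists (rows), with filled circles for bright probes, open circles for dim probes, a red bar at the median and dashed lines at 2-fold. Every point past 2-fold is an open circle, including Stim1 and Orai2 among the members.

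All 7 list genes and both members that reached 2-fold in any comparison had dim probes. Over all named probes, 8.80% of dim and 1.97% of bright probes reached 2-fold between the TAC arrays, and 4.81% and 0.562% between the sham arrays. Marker lists of cell types also differed between the arrays, and not all in the same direction. Of 9 cardiomyocyte probes, 7 were higher and 0 lower in STIM1KO sham than in WT sham, with a median of 0.09. Between the TAC arrays 3 were higher and 5 lower, with a median of -0.06. Of all named probes, 50.7% and 47.8% were lower in these comparisons. Of 10 smooth muscle and pericyte probes, 6 were lower between the sham arrays and 4 between the TAC arrays, with medians of -0.14 and 0.07. All 10 endothelial markers were lower in STIM1KO sham than in WT sham, with a median of -0.34, beside 50.7% of all named probes. After TAC 9 of 10 were lower in STIM1KO, with a median of -0.59, beside 47.8% of all named probes. The mean log2 level of the endothelial markers was 7.01 and 6.78 in WT after sham and TAC, and 6.62 and 6.28 in STIM1KO after sham and TAC. This order of means is that of Stim1, Stim2 and Cracr2b, though each step of Stim2 was within the probe error. Single endothelial markers did not all follow it, since 3 of 10 were higher after TAC in WT and 2 of 10 in STIM1KO. Fibroblast markers were lower in STIM1KO in 9 of 10 cases after sham and in 7 of 10 after TAC, beside the same shares of all named probes. Their mean levels were 6.72, 6.62, 6.51 and 6.47 in the order of arrays used for the endothelial markers. The fibroblast means thus fell in the same order, though 2 of 10 markers were higher after TAC in WT and 4 of 10 in STIM1KO. Macrophage markers had medians of -0.16 and 0.06 in these comparisons over 9 probes, with mean levels between 6.50 and 6.94. The 8 lymphocyte probes were all dim, with mean levels between 2.83 and 3.12. The part of other cell types in the Stim1 and Cracr2b differences was not tested.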

How the data were processed

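The deposited values are linear intensities, 1 per probe and array, with a median of 20.0 on every array. Per the labels' protocols, amplified RNA carried amino allyl groups to which Cy5 was coupled. How background was corrected, and why some cells are empty, is not stated in the labels. Of 23473 probes, 19607 had values on all 4. These were quantile-normalized as log2 values with limma 3.58.1 in R 4.3.3. The spread of the array medians before that was 0.10. Probe symbols came from the platform annotation, and 3947 were updated through synonyms in a RefSeq gene table of GRCm38.p6. With 1 array per group, comparisons are plain differences, with 2-fold as the threshold and no test. Members, lists and comparisons were chosen with earlier results of these data known. The rule for named genes took all 9 members, the genes of the 4 pathway lists at 2-fold in any comparison and the 5 profiles closest to Stim1. Marker lists were outside it. Other genes given with values were chosen after those were seen. The step that takes differences was run on simulated data, which checks the arithmetic only and not the normalization or the noise of these arrays.

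Alternatives were values as deposited, centring each array on its median, an offset added before log2 (5.49 units, the first quartile of all intensities), a filter at the median level, thresholds of 1.5-fold and 3-fold, and the mean over the probes of a gene. Quantile normalization over all values was added after seeing the data.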

Additional observations from a re-analysis of the deposited data

Results flagged for a closer look

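Some genes had differences of opposite sign under the same contrast in both genotypes or after both operations. None of these contrasts between groups was tested, since each group is 1 array, and a sign alone is met by small values. The value given is the STIM1KO response to TAC less the WT response, which equals the genotype difference after TAC minus that after sham.

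Among the members it was -0.21 for Orai1 and -1.02 for Orai2, whose genotype differences had opposite signs after sham and TAC. It was -0.48 for Orai3, whose responses and genotype differences both had opposite signs, and -0.22 for Homer1, whose response was 0.03 in WT and -0.19 in STIM1KO. The sign of the Orai1 genotype difference after TAC turned with quantile normalization over all values, so Orai1 would not be listed there.

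Among the list genes, all with dim probes, it was -1.06 for Atp2c2, -1.04 for Trpc7, -1.52 for Atp2a3, -1.35 for Casq1, -1.02 for Ryr2, -2.004 for Sln and -1.23 for Nfatc1. The sham genotype difference of Casq1, 0.02, turned to -0.05 with values as deposited and with quantile normalization over all values, and that of Ryr2, 0.02, to -0.03 and -0.08. Their responses to TAC still had opposite signs in WT and STIM1KO. The differences of responses of Atp2c2 and Trpc7 were under 2-fold at -0.988 and -0.963 with values as deposited. With quantile normalization over all values Atp2c2, Trpc7 and Ryr2 were under it at -0.915, -0.913 and -0.893. With the offset before log2 all 7 were under 2-fold, at -0.49 for Atp2c2, -0.45 for Trpc7, -0.94 for Atp2a3, -0.81 for Casq1, -0.43 for Ryr2, -0.67 for Sln and -0.79 for Nfatc1.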

How the results depend on the processing

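Of 180 member differences under the 4 other scalings, 178 moved by less than the error SD over all 167 genes with 2 probes, 0.37 to 0.54 by comparison. The other 2, both for Orai2 with the offset, are given above. Against the dim-probe error SD of 0.45, Orai2 also moved further between the TAC arrays, from -0.73 to -0.27 with the offset. The sign turned in 2 of the 180, for Orai1 between the TAC arrays and Saraf in the difference of responses, both with quantile normalization over all values. The count of members at 2-fold, 0 in the WT response and 1 in each other comparison, changed as follows. With only probes at or above the median level it was 0 in all 5 comparisons. That filter drops Stim1 because of its low STIM1KO arrays, so it cannot judge the Stim1 difference. With the offset the count was 0 in the STIM1KO response, between the sham arrays and in the difference of responses. In the last it was also 0 with the values as deposited and with quantile normalization over all values. At 1.5-fold it was 1 in the WT response, 3 in the STIM1KO response, 2 between the sham arrays and 3 between the TAC arrays. At 3-fold it was 0 throughout. The mean over probes changes nothing by construction, since each member has 1 probe. No paired analysis was possible because each group has 1 array.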

Other observations

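Most platelet and megakaryocyte markers read higher on the WT TAC array than on WT sham. Of 7 probes with values, 6 were higher and 1 was lower, with a median of 0.60, beside 52.4% of all named probes lower. Between the TAC arrays 6 were lower in STIM1KO, with a median of -0.59, beside 47.8% of all named probes. Between the sham arrays 5 were lower, with a median of -0.30, beside 50.7% of all named probes. Gp9, a subunit of the platelet receptor for von Willebrand factor, read 18.6 (sham) and 36.7 (TAC) in WT and 11.8 (sham) and 13.2 (TAC) in STIM1KO. Ppbp, a platelet chemokine precursor and 1 of the 2 probes of this list that were not dim, read 96.1, 152, 68.4 and 78.1 in the same order. Pf4, platelet factor 4, the other of these, read 324, 365, 248 and 237. These 3 were highest on WT TAC, and each was lower on both STIM1KO arrays than on both WT arrays. The other 4, all dim, did not share that order. Itga2b, the platelet integrin alpha chain, ran the other way with 2.65, 3.97, 3.61 and 5.96, higher in STIM1KO by 0.50 after sham and 0.54 after TAC. Treml1, a receptor of platelet granules, was higher in STIM1KO by 0.34 after sham and differed by -0.17 after TAC. Gp1ba, a partner of Gp9 in its receptor, was highest on WT sham at 4.04, and Gp1bb, another partner, read 12.2, 25.6, 11.4 and 17.4. Gp9, Ppbp and Pf4 were chosen after their values were seen, and the other 4 complete the list.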
